A study of Mus musculus with 9 samples.

Results

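The microRNA genes described here were the rows of a gene table whose symbol begins with Mir and a number or with Mirlet, outside the Mir290 to Mir295 cluster, that had a value above 0 in all 9 libraries of the study. Of 24132 rows in the table, 798 were microRNA rows and 791 of these lay outside the Mir290 to Mir295 cluster. In all, 83 rows met the rule, and 81 remained when rows of identical values were counted once. The rows were selected on their measured RPKM, so their detection and their levels are given as a description, without a test.

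The study asked which RNAs of mouse embryonic stem cells (ESCs) are recovered with WDR5, a subunit of the MLL complexes that methylate histone H3. It used RIPiT-seq, in which cells were fixed with formaldehyde, chromatin was sheared, and the tagged protein was purified first through a FLAG and then through an HA tag before the attached RNA was sequenced (IP). A library made from the same line without antibody served as the input. All cells were V6.5 ESCs of a 129/B6 F1 hybrid strain, grown without feeder cells and with LIF, and all had been infected with a lentivirus that carries puromycin resistance.

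The 3 lines differed in what the lentivirus encoded. The empty vector line received no tagged WDR5, so its IPs show what the purification recovers without the tag. The WT line expressed human WDR5 with an N-terminal FLAG-HA tag. The F266A line expressed the tagged human protein with the phenylalanine of that position changed to alanine, in a construct that was also shorter at its N-terminus. The tagged lines were isolated as clones and chosen for a WDR5 level near that of the endogenous protein, and endogenous mouse Wdr5 remained in all lines. Each line had 2 IP libraries and 1 input library, so an input has no replicate and both IPs of a line share it.

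MicroRNAs are cut from longer primary transcripts. The Microprocessor, made of Drosha and Dgcr8, releases a hairpin in the nucleus, Dicer1 cuts it in the cytoplasm, and an Argonaute protein uses 1 arm as a guide that pairs with mRNAs mainly through its seed, bases 2 to 8. Many hairpins lie inside introns or exons of other genes or inside long noncoding host transcripts, and several ESC microRNAs of the Mir290 and Mir302 clusters share a seed and promote the rapid cell cycle of these cells.

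A mature microRNA is shorter than the reads of 50 nt used here, and the libraries were made from RNA amplified without keeping its strand. A value of a microRNA row therefore counts reads that lie on the hairpin's place in the genome, and reads of a primary transcript, of a host transcript on either strand or of a near-identical copy cannot be told apart. The unit is RPKM, reads scaled by the length of the row and by the depth of the library. The score of an IP is its log2(RPKM + 1) minus that of the input of the same line, a scale that understates changes of rows at low RPKM.

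The RefSeq tables (GRCm38.p6) held mature sequences for 58 of the 81 rows, 85 sequences in all with 82 different seeds. Those of the rows on which the results below turn are printed 5′ to 3′ with the seed in capitals. The first 5 are of the ESC-enriched Mir302 cluster and of the Mir17 cluster and its relative on the X chromosome, and show which seeds these share.
miR-302b-3p: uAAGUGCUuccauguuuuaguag
miR-302d-3p: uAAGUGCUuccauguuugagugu
miR-18a-5p: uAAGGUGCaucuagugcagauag
miR-18b-5p: uAAGGUGCaucuagugcuguuag
miR-20a-5p: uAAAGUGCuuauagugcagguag
The next 7 belong to rows with a positive IP minus input that lie in a locus or host gene described below. For Mir127 and Mir377 this difference is given as a value only, because they were tested only through their IPs. Mir301b was not called without the F266A line, and 56.4% of all genes tested were called higher in IP.
miR-665-3p: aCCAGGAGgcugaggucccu
miR-127-3p: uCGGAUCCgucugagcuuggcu
miR-377-3p: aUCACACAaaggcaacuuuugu
miR-1306-3p: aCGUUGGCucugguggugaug
miR-186-5p: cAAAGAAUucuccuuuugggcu
miR-7a-5p: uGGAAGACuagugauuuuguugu
miR-301b-5p: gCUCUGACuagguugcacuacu
The last 3 belong to rows of high RPKM whose hairpins are near-identical to stretches of abundant mRNAs.
miR-682: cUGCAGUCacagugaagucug
miR-703: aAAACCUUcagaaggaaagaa
miR-692: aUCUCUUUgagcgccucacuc

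The seed AAGUGCU was shared by miR-302b-3p and miR-302d-3p, and also stood in miR-291a-3p, miR-294-3p and miR-295-3p of the Mir290 to Mir295 cluster that was not included here. miR-18a-5p and miR-18b-5p shared AAGGUGC, and the 5p arms of Mir302b and Mir302d shared CUUUAAC. Among the 58 rows with a mature sequence, these 3 seeds, of 4 rows, were the only seeds that occurred in more than 1 row. Rows without a sequence, such as the copies of Mir684, could not be compared. Whole hairpins are given for the locus with the highest IP minus input value, again from RefSeq and 5′ to 3′, with the mature arms in capitals.
Mir665 hairpin: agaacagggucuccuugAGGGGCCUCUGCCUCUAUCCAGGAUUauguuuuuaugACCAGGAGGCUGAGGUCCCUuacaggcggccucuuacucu
Mir127 hairpin: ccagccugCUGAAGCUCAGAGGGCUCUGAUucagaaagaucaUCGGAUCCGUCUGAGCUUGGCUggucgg

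Depth, estimated from the value of 1 read in each library, was 42.9 M (mega) reads for WT, 37.4 M for F266A and 50.3 M for the empty vector line in the inputs, and between 13.4 and 27.3 M in the IPs. The ESC markers Pou5f1, Nanog, Sox2, Esrrb and Zfp42 were detected in every library, with a summed RPKM from 82.6 to 157. F266A IP 1 stood apart from the other libraries of its line. Its Y-linked genes Ddx3y, Uty and Eif2s3y summed to an RPKM of 0.0383, against 4.43 in the F266A input and 7.21 in F266A IP 2, from 7.41 to 9.48 in the empty vector libraries and from 0.182 to 0.324 in the WT libraries. Its 9 primitive endoderm markers summed to 5.63, against 17.4 and 23.8 in the other F266A libraries and from 3.10 to 4.48 elsewhere. In bulk RNA, fewer cells of a type and less RNA per cell cannot be told apart. By these markers the 3 F266A libraries did not match each other as 1 clone would, and another clone, an exchanged sample and a different mix of cells cannot be told apart. Every F266A value below holds only as a value of libraries with this label, and the part of these differences in the results was not tested.

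The number of microRNA rows with any read depended on the library. Of the 791 rows, 417 were above 0 in the WT input and 441 in the empty vector input, but 214 in the F266A input, fewer than in any of the IPs although these were less deeply sequenced (256 to 401 rows). The F266A input also listed fewer small nucleolar RNA rows, 92 of 143 against 120 in each of the other inputs. For all remaining rows of the table it did not stand apart, with 73.9% above 0 against 75.0% and 75.4% in the other inputs. This 1 library decided most of the threshold. Of 128 rows above 0 in exactly 8 libraries, 106 were at 0 only in the F266A input. Just outside the rule stood Mir410, with a mean RPKM of 1.75 and a 0 in the F266A input, Mir705 with a mean of 1.19 and a 0 in F266A IP 1, and Mir1843 with a mean of 1.11 and a 0 in WT IP 2. Just inside stood Mir669a-3, Mir669a-2.2 and Mir702, whose lowest values were 0.0140, 0.0293 and 0.0350.

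**Figure D1:**
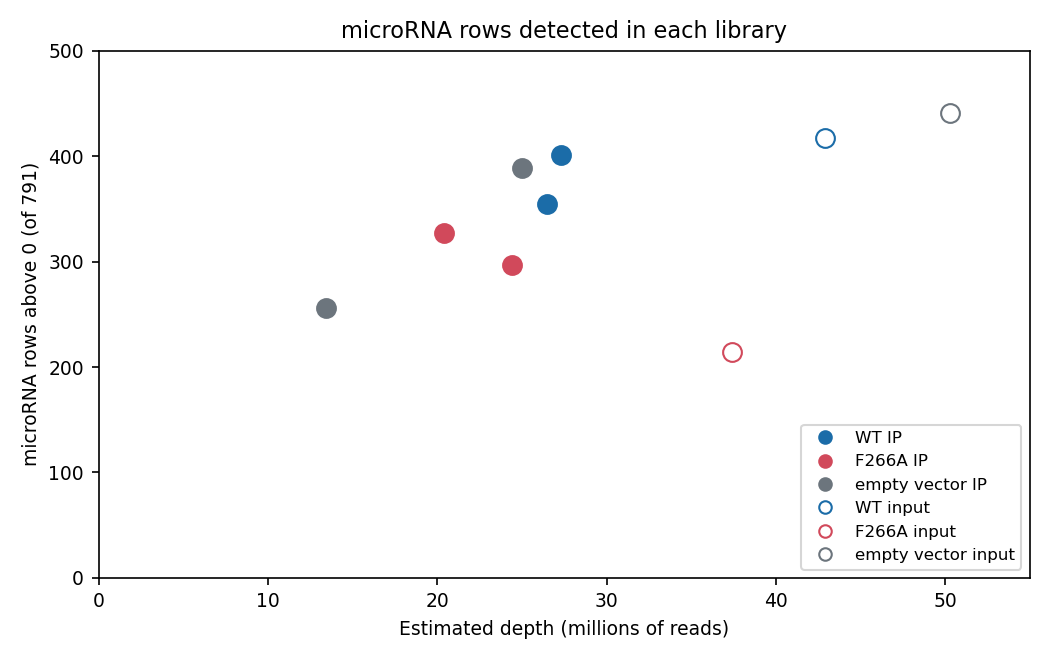
The number of microRNA rows above 0, of 791 (y axis), is plotted against estimated depth in M reads (x axis), with 1 point per library; filled points are IPs and open points inputs. The F266A input, at 37.4 M reads and 214 rows, lies below every IP.

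The 81 rows fell into groups by position in mm9. A single position could be given for 63, and 25 of these lay in an exon of some annotated transcript, retained introns included, 22 in an intron, 6 across an exon edge and 10 in no other gene. Sorted by what a read on the row could come from, 20 rows lay inside exons, 18 inside introns, 10 in the Dlk1-Dio3 locus, 10 were copies of Mir684, 6 were near-identical to other sequences, 6 crossed an exon edge, 5 more had no single position, 3 were host transcripts, 2 were copies of Mir1906 and 1 lay alone. Mir1906-2 was placed on the X chromosome, in no other gene, but Mir1906-1, with identical values, lies in an exon on chromosome 12. Most rows rested on few reads. Of the 63 rows with an estimate, 9 had at least 10 reads in every library. An RPKM of at least 1 in all libraries was reached by 34 of the 81 rows.

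The row of highest level was Mir5109, which had no single position. Its RPKM went from 2242 in the input to 912 and 1009 in the IPs of WT, from 2483 to 1133 and 1233 in F266A, and from 2209 to 946 and 1161 in the empty vector line. All 6 IPs lay below all 3 inputs. IP minus input was −1.12 (SE 0.11) on the log2 scale, with an adjusted p of 0.00181 by limma, and Mir5109 was the only row that fell. It made up between 70.6% and 81.3% of the summed RPKM of the 81 rows in the inputs and between 40.1% and 55.4% in the IPs. Rn45s, the ribosomal RNA precursor, also fell, by 0.69 on the log2 scale (adjusted p 0.0131 by limma). With quantile normalization Mir5109 did not pass, at −0.43 and an adjusted p of 0.199 by limma, and Rn45s was at −0.00. That setting gives every library the same set of values, so rows at the top can move little, and it cannot decide the change of these rows.

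Mir682 came next and followed a ribosomal protein mRNA. Its RPKM went from 321 in the input to 522 and 508 in the IPs of WT, from 177 to 245 and 283 in F266A, and from 400 to 672 and 570 in the empty vector line. The F266A libraries were the lowest, and the lowest IP lay below the highest input. The hairpin matched the transcript of Rpl37a, a protein of the large ribosomal subunit, over 96 nt at 99.0% identity, and mm9 held 6 such copies. The levels of both rows kept 1 proportion, with Mir682 at 3.31 times the RPKM of Rpl37a in the inputs and 3.30 times in the IPs, and both rose by 0.63 (SE 0.11 for each, adjusted p 0.00416 and 0.00406 by limma).

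Mir703 and Mir692-1 had the same kind of match. The Mir703 hairpin was 98.2% identical over 109 nt to the mRNA of Eef1a1, the translation elongation factor, and had an RPKM from 53.2 to 72.6 in the inputs and from 85.6 to 100 in the IPs, with no overlap. It rose by 0.58 (SE 0.09, adjusted p 0.00354 by limma), beside 0.53 for Eef1a1, and stood at 0.116 times the RPKM of Eef1a1 in the inputs and 0.118 times in the IPs. Mir1892 lies in the 3′ UTR of 1110002B05Rik and matches it in full, and mm9 holds a further near-identical copy. Mir1892 rose by 0.37 (SE 0.13, adjusted p 0.0449 by limma). Mir692-1 was 94.6% identical over 111 nt to Ftl1, the ferritin light chain, and ranged from 22.5 to 26.5 in the inputs and from 22.5 to 32 in the IPs. Its IP minus input was 0.04 (SE 0.10), while that of Ftl1 was 0.43. Mir686, in a coding exon of the proteasome subunit Psmb5 and matching it in full, was at 0.02 (SE 0.19) beside 0.34 for Psmb5.

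The 10 Mir684 rows are copies under 1 name and were not counted as independent. Their mean RPKM ran from 22.8 to 36.3, and in each the F266A input was the lowest library. Mir684-1 went from an RPKM of 27.6 in the input to 50.2 and 35.1 in the IPs of WT, from 19.4 to 41.1 and 44.5 in F266A, and from 27.5 to 43.8 and 37.1 in the empty vector line. In all 10 rows every IP lay above every input. All 10 rose, with a median of 0.73 and values from 0.64 to 0.86 (limma, adjusted p under 0.05). Without the F266A line all 10 still passed, with a median of 0.56.

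**Figure D2:**
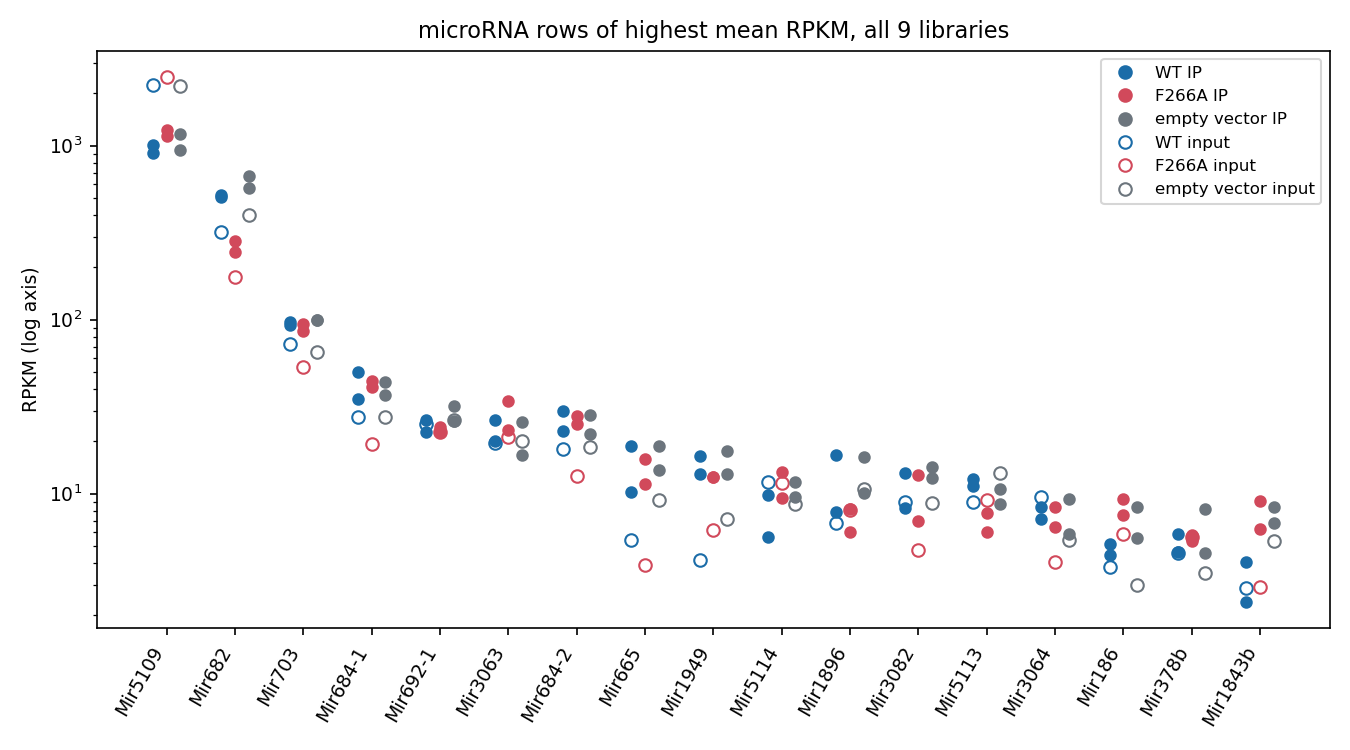
RPKM on a log axis (y axis) of the microRNA rows with the highest mean over the 9 libraries (x axis); filled points are IPs, open points inputs, coloured by line. Mir5109 lies lower in all IPs than in the inputs, and the Mir684 rows lie higher.

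IP was compared with input over all 3 lines by 1 limma fit on the 9787 genes with an RPKM of 1 or more in 2 or more libraries. Of all genes tested, 56.9% passed an adjusted p of 0.05, with 56.4% higher and 0.470% lower in IP, and the median gene was at 0.30. Of the 81 microRNA rows, 70 could be tested and 32 passed (45.7%), 31 higher and Mir5109 lower, with a median of 0.29. At an unadjusted p under 0.05 these were 36 of the 70 rows, beside 64.6% of genes. Counting the Mir684 rows apart, 22 of 60 passed (36.7%). A value near 0.30 is thus the level of the average gene and not a feature of a microRNA row. The empty vector IPs, without any tagged protein, had a median score over the 81 rows of 0.27 and 0.37, the WT IPs of 0.25 and 0.18, and the F266A IPs of 0.56 and 0.44.

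In 18 of the 70 rows every IP lay above every input, and in Mir5109 every IP lay below. Over all genes tested these shares were 42.2% above and 0.112% below. Besides the 10 Mir684 rows, the 18 were Mir703, Mir665, Mir1949, Mir1306, Mir127, Mir377, Mir3096 and Mir3096b. For 6 of the 70 rows every input was under an RPKM of 1, so they were tested only through their IPs, and 3 of these, Mir127, Mir302b and Mir377, were among those called higher. Mir669h, Mir5121, Mir1893 and Mir17hg, also called higher, had only their highest input at an RPKM of 1 or more. They passed the filter only with their IPs counted, so their calls carry a similar limit.

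The scaling of the libraries moved this comparison. Genes took from 20.1% to 22.6% of the reads in the inputs and from 27.2% to 29.5% in the IPs. With every library scaled to the same summed reads on genes, the median gene moved from 0.30 to 0.02, 2.12% of genes passed (1.12% higher, 0.991% lower) and 3 microRNA rows did: Mir127 at 0.69 and Mir1949 at 0.82 were higher and Mir5109 at −1.51 was lower. With quantile normalization 2.44% of genes passed (1.03% higher, 1.41% lower), and the rows were Mir127, Mir1949 and, lower, Mir5113. Mir1949 was higher in IP under all 3 scalings. Mir127 was so too, but with every input under an RPKM of 1 it was tested only through its IPs, and its calls are given as values only.

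**Figure D3:**
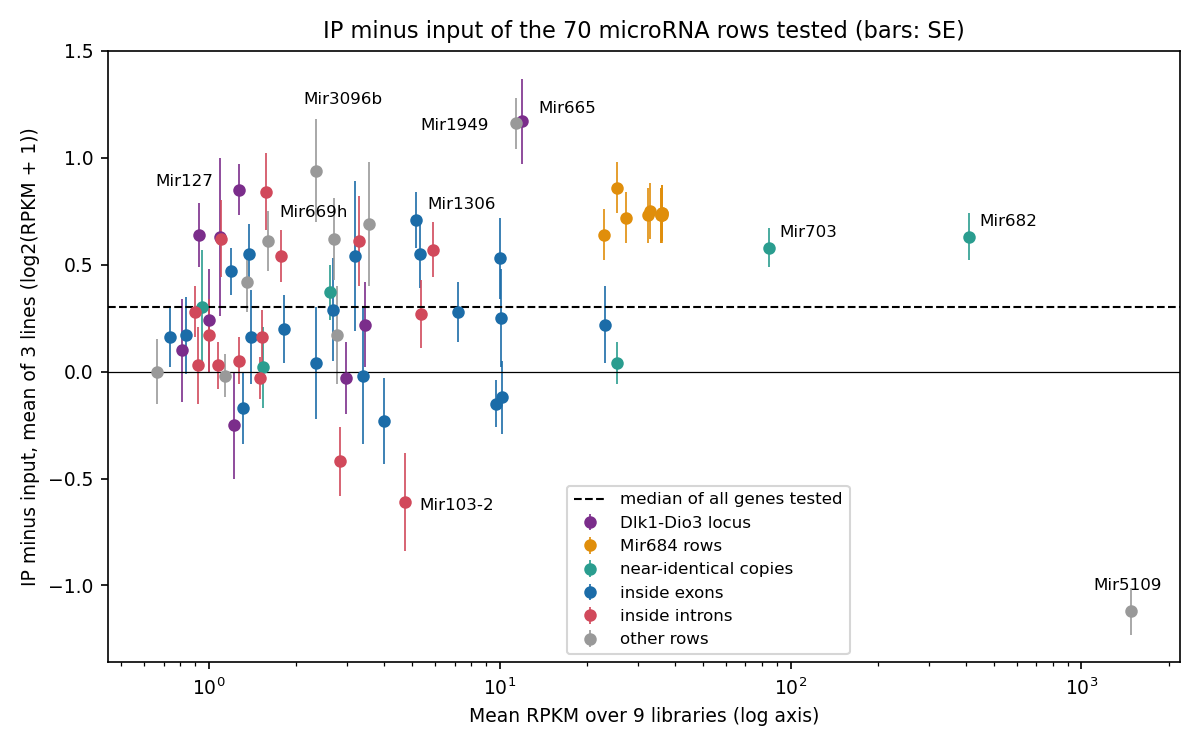
IP minus input on the log2(RPKM + 1) scale, mean of the 3 lines (y axis), is plotted against mean RPKM on a log axis (x axis) for the 70 rows tested, coloured by group, with bars of 1 SE; the dashed line is the median of all genes tested, 0.30. Mir665 at 1.17 and Mir1949 at 1.16 lie highest and Mir5109 at −1.12 lies lowest.

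Leaving out F266A IP 1 kept all 32 calls, added Mir1906-1.2 as higher and Mir3070b as lower, and left the median at 0.30. Leaving out the whole F266A line gave 25 calls, 23 of the 32 and, as gained, Mir678 at 0.70 and Mir1906-1.2 at 0.34 (adjusted p 0.0158 and 0.0260 by limma). The 9 that no longer passed were Mir1843b, Mir1892, Mir1893, Mir1906-2, Mir301b, Mir302b, Mir3082, Mir5121 and Mir669h, all still above 0, with values from 0.21 to 0.56.

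Mir1949, a row with no single position, went from an RPKM of 4.17 in the input to 16.5 and 12.9 in the IPs of WT, from 6.16 to 12.5 and 12.4 in F266A, and from 7.15 to 12.9 and 17.7 in the empty vector line. Every IP lay clear of every input. It rose by 1.16 (SE 0.12, adjusted p 0.00199 by limma), which is 0.87 above the median gene. The WT scores, 1.76 and 1.42, were the highest, followed by 0.77 and 1.20 in the empty vector line and 0.91 and 0.91 in the F266A line, but WT minus empty vector was 0.61 (SE 0.30) and did not pass (adjusted p of 1 by limma).

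Mir3096 and Mir3096b, also without a single position, rose by 0.61 (SE 0.14) and 0.94 (SE 0.24), with adjusted p of 0.00903 and 0.0126 by limma. Mir3096b ranged from 0.865 to 1.04 in the inputs and from 1.44 to 5.91 in the IPs, and the largest of these was F266A IP 1.

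The imprinted Dlk1-Dio3 locus on chromosome 12 gave 10 of the rows. It carries the maternally expressed noncoding transcripts Meg3, Rian and Mirg with many microRNAs and small nucleolar RNAs, and the paternally expressed genes Dlk1, Rtl1 and Dio3, and expression of its maternal transcripts marks fully pluripotent mouse stem cells. Of the 10 rows, 9 were tested and 3 rose, Mir665, Mir127 and Mir377, where 56.4% of all genes were called higher, with a median of 0.24 beside 0.30 for all genes. Mir127 and Mir377 entered the test only through their IPs, so the count does not set the locus apart. The host transcripts themselves rose, Meg3 by 0.53, Rian by 0.72 and Mirg by 0.97 (adjusted p 0.0136, 0.0181 and 0.0207 by limma).

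Mir665 (mm9 chr12:110824524-110824617, plus strand, in no annotated gene) went from an RPKM of 5.40 in the input to 18.8 and 10.2 in the IPs of WT, from 3.88 to 15.8 and 11.3 in F266A, and from 9.24 to 13.7 and 18.7 in the empty vector line. The lowest IP was above the highest input. It rose by 1.17 (SE 0.20, adjusted p 0.00396 by limma), the highest value of all 70 rows, and by 0.97 without the F266A line. Scaled to the same reads on genes it was at 0.83 with an adjusted p of 0.0728 by limma.

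Mir127 (mm9 chr12:110831042-110831138, plus strand) lies within the coding exon of Rtl1 on the opposite strand, and its mature arms pair fully with the Rtl1 mRNA. Its RPKM went from 0.824 in the input to 1.16 and 1.95 in the IPs of WT, from 0.600 to 1.35 and 1.55 in F266A, and from 0.0703 to 1.91 and 2.02 in the empty vector line. Every IP was above every input, and the input of the empty vector line was the lowest value. Given as a value only, its IP minus input was 0.85 (SE 0.12), beside −0.03 (SE 0.15) for Rtl1. The Mir127 values rest on few reads, from 0.343 to 5.0 estimated reads in a library.

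Mir377, in an exon of Mirg, had an RPKM from 0.275 to 0.489 in the inputs and from 0.601 to 2.15 in the IPs. Its IP minus input, 0.64 (SE 0.15), is likewise given as a value only. The other tested rows of the locus, Mir493, Mir540, Mir3070b, Mir1188, Mir453 and Mir666, lay between −0.25 and 0.63 and did not pass, and Mir341 was not tested. Dlk1 and Dio3 were nearly silent, with an RPKM of at most 0.166 and 0.252 in any library. Mir1906-1.2 and Mir1906-2 are kept apart. Mir1906-2 was placed on the X chromosome, but Mir1906-1, with identical values, lies on chromosome 12 in an exon of Meg3. Reads of these places cannot be told apart. Mir1906-2 rose by 0.62 (SE 0.19, adjusted p 0.0239 by limma), beside 0.53 for Meg3. Mir1906-1.2 was at 0.69 with a larger error (SE 0.29, adjusted p 0.0711 by limma).

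**Figure D4:**
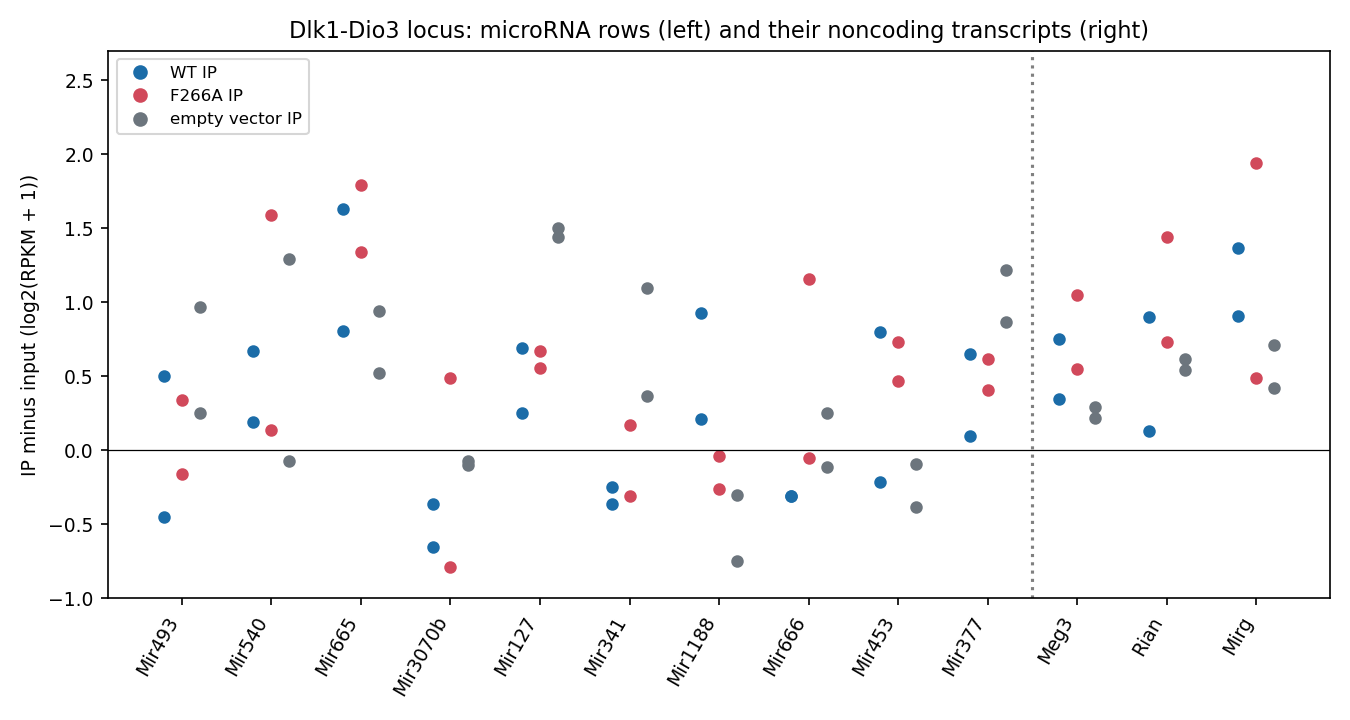
Scores of the 6 IPs (y axis, log2(RPKM + 1) of IP minus input of the same line) for the microRNA rows of the Dlk1-Dio3 locus (left) and its noncoding transcripts (right), coloured by line. All 6 scores of Mir665 and Mir127 lie above 0, as do those of Meg3, Rian and Mirg.

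Inside exons of other genes lay 20 rows, all tested, and 5 rose (25%, beside 56.4% of all genes), with a median of 0.21 beside 0.30. Among them was Mir1306, which lies in the coding sequence of Dgcr8, the RNA-binding subunit of the Microprocessor (mm9 chr16:18284332-18284410, minus strand). Mir1306 went from an RPKM of 3.60 in the input to 5.34 and 5.82 in the IPs of WT, from 3.11 to 7.82 and 4.93 in F266A, and from 3.22 to 6.27 and 6.51 in the empty vector line. Every IP was above every input. It rose by 0.71 (SE 0.13, adjusted p 0.00447 by limma), and Dgcr8 rose by 0.41. In RPKM it stood at 0.958 times Dgcr8 in the inputs and 1.24 times in the IPs.

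The other 4 were Mir3082, Mir1843b, Mir5121 and Mir1893. Mir3082, opposite to the 3′ UTR of Jmjd8, rose by 0.53 (SE 0.19, adjusted p 0.0457 by limma) beside 0.68 for Jmjd8. Mir1843b shares its place with the small Cajal body RNA Scarna3a and rose by 0.55 (SE 0.16, adjusted p 0.0195 by limma) beside 0.37 for Scarna3a. Mir5121, in an annotated exon of the ribosomal protein gene Rpl13a, rose by 0.55 (SE 0.14, adjusted p 0.0122 by limma) beside 0.56 for Rpl13a, but its level in the inputs was 0.00657 times that of Rpl13a. Mir1893, in Epc1, a subunit of a histone acetyltransferase complex, rose by 0.47 (SE 0.11, adjusted p 0.00930 by limma). All 4 lost the call without the F266A line. Mir5121 and Mir1893 passed the filter only with their IPs counted.

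The 15 remaining exonic rows did not pass, with values from −0.23 to 0.54. Mir3063, in the 3′ UTR of the RNA-binding protein gene Igf2bp1, had the highest level of them, from 19.5 to 21.3 in the inputs and from 16.6 to 34.2 in the IPs, and an IP minus input of 0.22 (SE 0.18) beside 0.33 for Igf2bp1. Mir678 was at 0.54 with a large error (SE 0.35, adjusted p 0.201 by limma), and at 0.23 without F266A IP 1. Mir18 and Mir20a lie in Mir17hg, the host transcript of the Mir17 to Mir92-1 cluster, which supports cell proliferation. Mir17hg, a transcript with between 80.2 and 193 estimated reads in a library, rose by 0.42 (SE 0.14, adjusted p 0.0319 by limma), but passed the filter only with its IPs counted. Mir18 was at 0.20 (SE 0.16) and Mir20a at 0.16 (SE 0.14), and neither passed. Mir18b, of the related cluster on the X chromosome, was at −0.02 (SE 0.10).

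Inside introns lay 18 rows, of which 15 were tested and 5 rose (33.3%, beside 56.4% of all genes), with a median of 0.17 beside 0.30. Mir186 lies in Zranb2, a splicing factor gene (mm9 chr3:157207243-157207313, plus strand). Its RPKM went from 3.78 in the input to 5.16 and 4.42 in the IPs of WT, from 5.83 to 7.56 and 9.34 in F266A, and from 3.0 to 5.58 and 8.43 in the empty vector line. Within each line both IPs were above the input, although the ranges overlapped between lines. It rose by 0.57 (SE 0.13, adjusted p 0.00903 by limma) and Zranb2 by 0.54.

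Mir7-1 lies in Hnrnpk, which encodes an abundant nuclear RNA-binding protein (mm9 chr13:58494140-58494247, minus strand), and rose by 0.54 (SE 0.12, adjusted p 0.00880 by limma) beside 0.72 for Hnrnpk. Mir301b, in an intron of the gene 2610318N02Rik, rose by 0.61 (SE 0.21, adjusted p 0.0365 by limma) beside 0.49 for its host. Mir669h belongs to the large microRNA cluster in an intron of the imprinted gene Sfmbt2. It rose by 0.84 (SE 0.18, adjusted p 0.00787 by limma) and Sfmbt2 by 0.75, while Mir669a-3 of the same intron was at 0.28 (SE 0.12, adjusted p 0.0670 by limma). Mir669h passed the filter only with its IPs counted.

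The Mir302 cluster lies in an intron of Larp7 on the opposite strand. Mir302b (mm9 chr3:127248146-127248219, plus strand) went from an RPKM of 0.738 in the input to 0.490 and 0.989 in the IPs of WT, from 0.247 to 1.46 and 1.07 in F266A, and from 0.527 to 1.39 and 3.01 in the empty vector line. Mir302b was tested only through its IPs, so its IP minus input is given as a value only. It was 0.62 (SE 0.18), and 0.50 without the F266A line. Mir302d, with the same seeds, did not reach the filter and ranged from 0.166 to 1.11. Mir302a, Mir302c and Mir367 of this cluster had a 0 in at least 1 library.

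Rows with low scores were few. Mir103-2, in an intron of the pantothenate kinase gene Pank2, went from an RPKM of 7.73 in the input to 4.52 and 4.25 in the IPs of WT, from 4.76 to 4.48 and 3.68 in F266A, and from 6.60 to 5.05 and 1.55 in the empty vector line. Every IP was below the input of its line, and the difference, −0.61 (SE 0.23), missed the threshold (adjusted p 0.0530 by limma), beside 0.15 for Pank2. Mir467f in Fxr2 was at −0.42 (SE 0.16, adjusted p 0.0527 by limma).

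The level of a row was set beside that of its host gene. Over 21 exonic rows with a host value, the median ratio of row to host in the inputs was 0.940, from 0.00657 to 5.26, and 11 rows were between 0.5 and 2 times the host. Over 20 intronic rows the median was 0.198, from 0.00626 to 1.60, and 14 were under 0.5 times the host. Of the 18 tested hosts of exonic rows 13 were called higher in IP, and of the 16 hosts of intronic rows also 13, beside 56.4% of all genes. Of the 7 exonic and 5 intronic rows called higher, 6 and 5 had a host that was called higher as well. The exception was Mir127 in Rtl1. Mir127, Mir377 and Mir302b were tested only through their IPs, and Mir5121, Mir1893 and Mir669h passed the filter only with their IPs counted. The counts of called rows are therefore not read as agreement between rows and hosts. The mean score of the row exceeded that of its host in 5 of 21 exonic and 6 of 20 intronic rows. These are descriptions over rows that share transcripts and are not replicates.

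**Figure D5:**
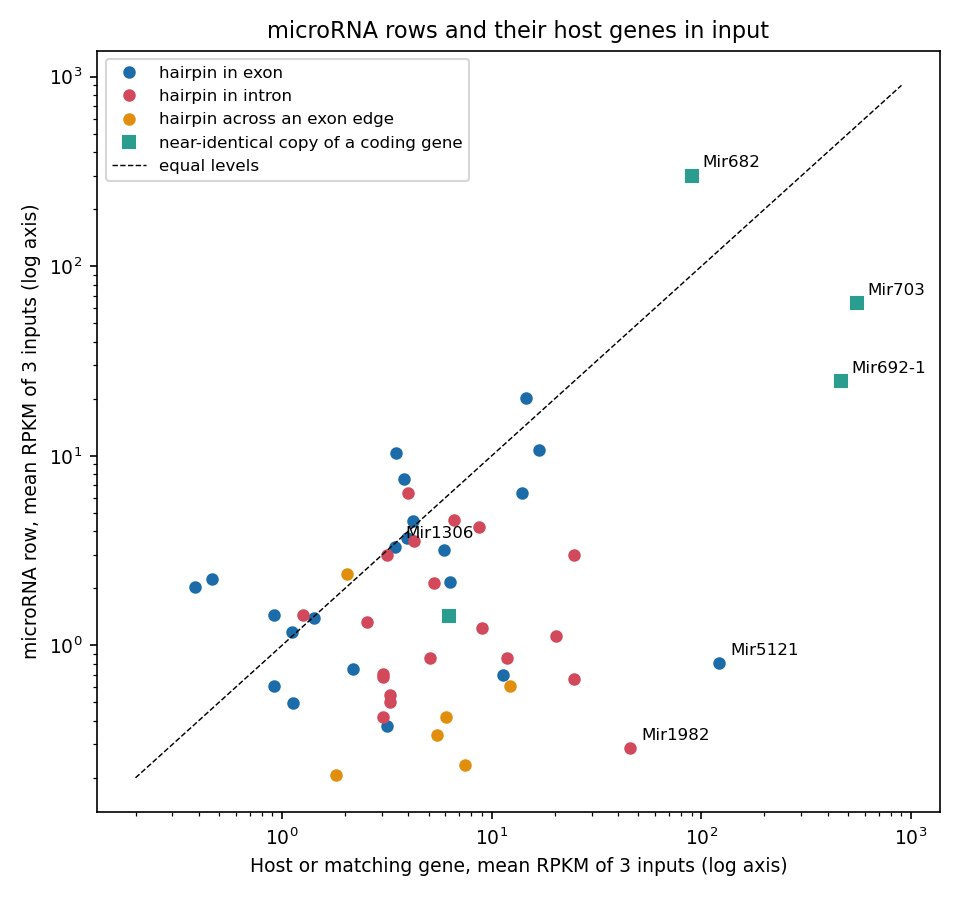
Mean RPKM over the 3 inputs of each microRNA row (y axis) against that of its host or matching gene (x axis), both on log axes, coloured by position, with squares for near-identical copies of coding genes; the dashed line marks equal levels. Exonic rows scatter around the line with a median ratio of 0.940, and intronic rows lie mostly below it with a median of 0.198.

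Among the 24 genes of the microRNA pathway, 23 were tested, 8 rose and 0 fell, a smaller share than the 56.4% of all genes called higher, with a median of 0.20 beside 0.30 for all genes. Those that rose were Drosha (0.46) and Dgcr8 (0.41) of the Microprocessor, its helper helicase Ddx5 (0.64), the cap-linked factor Srrt (0.45), Ran (0.55), the GTPase of nuclear export, the Dicer partner Tarbp2 (0.57), and Lin28a (0.47) and Zcchc11 (0.41), which together block let-7 maturation. Dicer1 (0.18), Xpo5 (0.26), Ago1 (0.05), Ago2 (0.09) and Ago3 (0.04) did not pass. Of the Mir290 to Mir295 rows, 6 were tested and 2 rose, Mir292 by 0.66 and Mir293 by 0.84 (adjusted p 0.00416 and 0.0251 by limma).

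The lines were then compared in the same fit, each as IP minus its own input. With limma, no gene passed an adjusted p of 0.05 in any of the 3 comparisons (0% of 9787), and neither did any of the 70 rows (0 of 70 in each). At an unadjusted p under 0.05 there were, of the 70 rows, 9 for WT minus empty vector, 5 for WT minus F266A and 10 for F266A minus empty vector. These were larger shares than the 1.77%, 2.65% and 2.48% of all genes that reached that level. Most rows rest on few reads, and the cause was not tested. The comparisons share libraries, so these counts are not independent. The median over the 70 rows was 0.05 for WT minus empty vector, −0.36 for WT minus F266A and 0.36 for F266A minus empty vector, beside medians of 0.01, −0.09 and 0.10 over all genes. With the Mir684 rows left out the medians of the rows were 0.01, −0.30 and 0.25. The F266A input, the library with the fewest microRNA rows above 0, enters both comparisons with F266A. Without F266A IP 1 the medians that involve F266A were −0.25 and 0.21, beside −0.08 and 0.09 over all genes. The median standard error of a row was 0.38, against 0.24 for all genes.

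Mir467f gave the lowest unadjusted p of the rows. It went from an RPKM of 2.28 in the input to 2.82 and 5.36 in the IPs of WT, from 2.50 to 2.36 and 2.04 in F266A, and from 5.85 to 1.33 and 0.878 in the empty vector line. The WT scores were 0.22 and 0.96, the F266A scores −0.06 and −0.20 and the empty vector scores −1.56 and −1.87. WT minus empty vector was 2.30 (SE 0.39), but after adjustment over all genes it did not pass (unadjusted p 0.000354, adjusted p of 1 by limma). The empty vector input was the highest of the 3 inputs, and with the mean of the 3 inputs in place of each line's own, the difference was 1.24 (SE 0.23, adjusted p 0.328 by limma).

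Mir127 went the other way, with scores of 1.44 and 1.5 in the empty vector line, 0.25 and 0.69 in WT and 0.56 and 0.67 in F266A. WT minus empty vector was −1.0 (SE 0.29, adjusted p of 1 by limma) and was −0.23 (SE 0.16) with the mean of the 3 inputs. Mir1893 had the lowest unadjusted p for WT minus F266A (−0.97, SE 0.26, unadjusted p 0.00606, adjusted p of 1 by limma), and its F266A input, at 0.361 against 1.0 and 0.896 in the other lines, was the lowest of its libraries.

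When the mean of the 3 inputs was used for every line, so that only the IPs differed, 1.16% of genes passed for WT minus F266A and 4.55% for F266A minus empty vector. Among the rows, Mir682 was then higher in WT than in F266A by 0.96 (SE 0.15, adjusted p 0.0352 by limma), and 4 of the 70 rows passed between F266A and empty vector. Mir18 was higher by 1.16 (SE 0.23) and Mir28b by 1.30 (SE 0.15) in F266A, and Mir18b by 1.11 on the log2 scale and Mir682 by 1.23 were higher in empty vector (differences of −1.11, SE 0.14, and −1.23, SE 0.15). The values of Mir18, Mir28b and Mir18b rest on few reads. In the empty vector IPs Mir18 had 2.40 and 0.630 estimated reads and Mir28b 1.22 and 0.286. Mir18b had 0.685 and 0.988 in the F266A IPs. For Mir682 the inputs differed in the same way, with 177 in F266A against 321 in WT and 400 in the empty vector line. Mir18b also had its lowest input in F266A, 0.459 against 1.33 and 1.59. WT minus empty vector gave 0 rows and 0 genes with this setting. Without F266A IP 1 as well, Mir28b (1.39), Mir18b (−1.07) and Mir682 (−1.13) still passed between F266A and empty vector (adjusted p 0.0114, 0.0193 and 0.0224 by limma), while Mir18 at 0.81 did not (adjusted p 0.0606), nor did Mir682 at 0.86 between WT and F266A (adjusted p 0.0745).

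The study called an RNA enriched when both WT scores were above 0 and above all 4 scores of the other lines, a rule without an error term. Of the 81 rows 5 met it (6.17%), where 5.80% of all rows detected in every library and 4.79% of the whole table did. They were Mir1949, Mir1892, Mir5113, Mir467f and Mir1188. When F266A took the place of WT, 23 rows met it (28.4%, against 19.7% and 13.6%), and for the empty vector line 9 rows (11.1%, against 5.22% and 3.96%). Over the 81 rows the WT count was the lowest of the 3, but its share was near that of all rows detected in every library. Over those rows the empty vector line had the lowest share, 5.22% beside 5.80% for WT. The 23 rows of F266A held all 10 Mir684 rows, which are not independent, so the 28.4% is not read as an excess over all rows.

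Of the 5 rows of WT, Mir5113 in the 3′ UTR of Tnrc6b, a partner of Argonaute, had the widest margin. It went from an RPKM of 8.92 in the input to 12.1 and 11.1 in the IPs of WT, from 9.21 to 6.01 and 7.77 in F266A, and from 13.1 to 10.7 and 8.75 in the empty vector line. Its WT scores were 0.40 and 0.29 and its highest other score was −0.22, a margin of 0.51 with a gap of 0.11 between the replicates. For Mir467f, Mir1188, Mir1892 and Mir1949 the margins were 0.28, 0.24, 0.13 and 0.22, below the gaps of 0.74, 0.73, 0.32 and 0.34 between the WT replicates. With F266A IP 1 left out 10 rows met the rule for WT, and with the mean of the 3 inputs 1 did.

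The 23 rows of F266A held all 10 Mir684 rows, whose lower F266A scores were from 0.94 to 1.11 and whose margins were from 0.09 to 0.25. Mir669a-3 had the widest margin of the 23, 0.53, and the lowest input of any row, 0.0140 in F266A. Mir5121, Mir1843b, Mir1893, Mir1931, Mir1906-2 and Mir5134 had margins between 0.33 and 0.43. With the mean of the 3 inputs 7 rows met the rule for F266A, 4 of them among the 23.

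The 9 rows of the empty vector line, which has no tagged protein, included Mir127 and Mir302d with margins of 0.75 and 0.77, wider than any margin of the WT rows. Mir377, Mir186, Mir3572, Mir341, Mir18b, Mir143hg and Mir3076 made up the rest, with margins from 0.04 to 0.24. Mir302d went from an RPKM of 0.166 in the input to 0.885 and 1.11 in the IPs of the empty vector line, but from 0.928 to 0.267 and 0.236 in F266A and from 0.537 to 0.411 and 0.456 in WT. All these values are under or near an RPKM of 1 and correspond to between 0.360 and 2.29 estimated reads.

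The 11 rows that did not reach the filter were Mir341, Mir5134, Mir1982, Mir669k, Mir302d, Mir3076, Mir704, Mir3062, Mir22hg, Mir702 and Mir143hg. Their mean RPKM lay between 0.206 and 0.802, and they got no test. For the host transcripts Mir22hg and Mir143hg the mean scores of the 3 lines were from 0.00 to 0.16 for Mir22hg and from −0.07 to 0.15 for Mir143hg.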

How the data were processed

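The deposited table holds RPKM per RefSeq gene symbol for 9 RIPiT-seq libraries, which the authors made by mapping reads of 50 nt to mm9 with TopHat 1.1.3 and computing RPKM with their own script. RPKM are not counts, so no count test was used. Scores were log2(RPKM + 1) of IP minus input. limma 3.58.1 in R 4.3.3 (lmFit, contrasts, eBayes with trend) used the 9787 genes with an RPKM of 1 or more in 2 or more libraries. Its model gave each input and each pair of IPs a mean of their own, and p-values were adjusted over all genes by Benjamini-Hochberg. The spread comes from the 3 IP pairs. Nothing used here says that paired IPs came from separate cultures, so p-values measure the spread between these samples, which may be technical. The fit was also run on simulated data with a common mean per gene and normal noise. Apart from the genes set to change, these data held no line differences and no shift in IP. They did not model the sampling of few reads.

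Positions were read from GENCODE M1 on mm9 (43 rows) or from an exact match of the RefSeq hairpin (20 rows), with copies found by BLAST 2.17.0 at 95% identity over 90% of the hairpin, and transcript matches at 90% identity over 80%. A row was exonic when at least 90% of it lay in exons. Reads were estimated from RPKM, length and depth.

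The rows, gene lists and tests were chosen with earlier results of these data known. Named rows are the 12 of highest mean RPKM, the 5 highest and lowest in IP minus input at a mean RPKM of at least 1, up to 10 of largest change past the threshold per comparison, up to 8 that met the enrichment rule per line, the listed polycistrons, host genes and pathway genes. Other rows called higher, those the mean of the 3 inputs called, and those at the detection threshold were named after their values were seen. Alternatives were another pseudocount, filters, scalings and inputs, an additive fit, eBayes without trend, the replicate number as a block, and leaving out each IP. Leaving out the F266A line, and the mean inputs without F266A IP 1, were added after seeing the data. The labels give no batch, and 0 value columns lacked a sample. Python 3.11.15 with numpy 2.4.6 and pandas 2.3.3 was used otherwise.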

Additional observations from a re-analysis of the deposited data

Results flagged for a closer look

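The following rows moved in opposite directions in both IPs of 2 lines. All are below the filter, rest on few reads, and the differences were not tested. The value is the score nearest 0 in the line that was higher and then the score nearest 0 in the line that was lower. Mir302d was at 0.69 or more in the empty vector line and at −0.08 or less in WT and −0.61 or less in F266A. Mir704 was at 0.25 or more in WT and 0.40 or more in the empty vector line, and at −0.58 or less in F266A. Mir5134 was at 0.40 or more in F266A, and at −0.02 or less in WT and −0.17 or less in the empty vector line. Mir341 was at 0.37 or more in the empty vector line and at −0.25 or less in WT, and Mir3076 at 0.14 or more and −0.13 or less in the same lines. Mir669k was at 0.17 or more in F266A and −0.14 or less in WT, and Mir702 at 0.20 or more and −0.17 or less. Mir143hg was at 0.05 or more in WT and 0.13 or more in the empty vector line, and at −0.02 or less in F266A.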

How the results depend on the processing

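The 32 rows called in IP against input became 14 without the filter (3258 of 20431 genes, against 5567 of 9787), 3 with quantile normalization (239 genes) and 3 with libraries scaled to the same reads on genes (207 genes), and 28 to 35 when 1 IP was left out. For WT minus F266A the count of 0 became 1 (114 genes) with the mean of the 3 inputs and 0 to 1 with 1 IP left out, where the removal of F266A IP 2 called Mir1906-1.2. For F266A minus empty vector it became 4 (445 genes) with the mean inputs. With the mean inputs and without F266A IP 1 these counts were 4 (196 genes) and 9 (480 genes), Mir678, Mir1906-1.2 and Mir1906-2 being in both. The cause was not tested. For the enrichment rule, WT gave 1 row with the mean inputs, 3 with scores centred on the median gene, 2 when scaled, 17 without the F266A line and 6 to 11 with 1 IP left out (11 without WT IP 1, 9 without WT IP 2, 10 without F266A IP 1). F266A gave 7 with the mean inputs and 24 to 41 with 1 IP left out, 41 being without F266A IP 2. The empty vector line gave 20 without the F266A line and 10 to 17 with 1 IP left out, 17 being without empty vector IP 1. The other 82 recomputed counts and medians stayed within 1.5 times or 1 SD of the reported ones. None of the 32 rows called in IP against input changed sign there, although rows that were not called did (without the F266A line Mir18 went from 0.20 to −0.09). The lines share replicate numbers, and the differences between replicates correlated at 0.26, 0.11 and 0.01 across genes between lines. These correlations cannot decide whether the numbers pair the IPs. With the replicate number as a block, 34 rows were called in IP against input and 0 in each comparison of lines. Depth limits most rows, since 9 of 63 had at least 10 estimated reads in every library.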
